A study of Mus musculus with 30 samples.

Results

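This account is about the difference between raising and silencing MCU in single mouse muscle fibres 14 days after injection, and about the genes that moved in opposite directions with the 2 manipulations. Its members are the 16 arrays of day 14 among the 30 arrays of the series, chosen by the time point in the sample titles, and each array holds 1 fibre. They were taken from the EDL (extensor digitorum longus), which lies in the hindlimb and is made mostly of fast fibres, of male CD1 mice aged 8 weeks when the muscle was injected with an adeno-associated virus (AAV). AAVMCU fibres carried a vector that overexpresses MCU (n = 4), and their controls were Wild type fibres that had received no vector (n = 4). AAVshMCU fibres carried a vector with a hairpin that silences MCU (n = 4), and their controls were the AAVshLuc fibres (n = 4), named in the titles for a hairpin against luciferase but described in other labels as carrying a vector without an insert, which the sources do not settle. All fibres of injected muscles were picked for the green marker ZsGreen, and fibres that showed the intended change of MCU by quantitative PCR were kept, so the change of Mcu is not independent of their selection. The animals are not named, so fibres may share an animal and a p-value here measures the spread among fibres.

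MCU is the pore of the mitochondrial calcium uniporter, the channel through which calcium enters the matrix when cytosolic calcium rises. Its activity is set by gatekeepers such as MICU2 and MICU3, by the essential regulator EMRE (Smdt1) and by the dominant-negative paralogue MCUb. In muscle, where calcium is released at every contraction, calcium in the matrix stimulates several dehydrogenases of oxidative metabolism. The study asked how MCU acts on the mass of skeletal muscle.

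The gain arm is AAVMCU minus Wild type, the loss arm is AAVshMCU minus AAVshLuc, and the difference of differences is the gain arm minus the loss arm. It is positive where a transcript was higher with gain than with loss of MCU, each relative to its own control. Fibres of the gain arm shared one slide and those of the loss arm another, with treated fibres in columns 1 and 2 and control fibres in columns 3 and 4 of both. Additive effects of slide cancel within each arm, and those of column cancel only in the difference of differences. Within each arm column and treatment cannot be told apart, which bears on the p-values of the arms and on any rule that uses them. The vector does not cancel, because the controls of the gain arm had none: in that arm vector, marker and MCU cannot be told apart, whereas the loss arm has a vector on both sides. The difference of differences is also the sum of AAVMCU minus AAVshMCU and of AAVshLuc minus Wild type, and both are given beside it for many of the genes described. Each of these sets fibres of different slides against each other, and in them the slide cannot be told apart from the group. Every level is log2 of the signal over the array's 75th percentile, every difference is a log2 difference, errors of differences are standard errors (SE), and adjusted p-values are Benjamini-Hochberg values from 1 limma fit over 22677 genes.

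The 16 arrays were alike in quality, with a 75th percentile of signal between 99.3 and 132.7 and 50.6% to 59.6% of probes well above background. Correlations lay between 0.951 and 0.985 within groups and between 0.937 and 0.981 across groups. All 10 fast-fibre markers were well above background on all 16 arrays, with a summed linear level of 3652 to 4911 in AAVMCU, 3084 to 4018 in Wild type, 1940 to 3972 in AAVshMCU and 3344 to 3707 in AAVshLuc fibres, against at most 10.3 for the slow-fibre markers on any array. No marker of macrophages, lymphocytes, fibroblasts, endothelium, mural, Schwann, satellite or fat cells or of erythroid cells passed the limma test of the difference of differences (0 of 43 measured, with 7 at an unadjusted p below 0.05, against 16.7% of all genes). The summed level of the macrophage list was 301 to 352 in AAVMCU, 308 to 319 in Wild type, 256 to 332 in AAVshMCU and 275 to 308 in AAVshLuc fibres. Most of it was the single gene Itgam, while Mrc1 and Cx3cr1 were well above background on 0 arrays. The erythroid sum reached 95.3 on 1 AAVshMCU array, against at most 18.6, 16.4 and 1.06 in AAVMCU, Wild type and AAVshLuc fibres. The fibroblast sum was 4.24 to 16.2 in Wild type fibres, against at most 5.65, 4.85 and 4.11 in AAVMCU, AAVshMCU and AAVshLuc fibres.

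Mcu itself moved furthest apart of the genes with arms of opposite sign. It was measured by 1 probe, on the minus strand of chromosome 10 in the mouse build mm9 of the file headers, at chr10:58929203-58929262, shown here because every comparison rests on it.
Mcu probe: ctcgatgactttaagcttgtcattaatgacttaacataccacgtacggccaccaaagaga
Mcu stood at 6.37, 5.87, 6.66 and 6.54 in AAVMCU fibres, against 2.79, 2.15, 2.52 and 2.37 in Wild type fibres. It stood at -1.15, -0.01, -1.69 and 0.75 in AAVshMCU fibres, against 2.33, 2.65, 2.80 and 2.40 in AAVshLuc fibres. All overexpressing fibres lay above all Wild type fibres and all silenced fibres below all their controls, and the 2 control groups overlapped. The fourth AAVshMCU fibre kept the most Mcu and the third the least. The gain arm was 3.90 ± 0.38 (adjusted p = 3.57e-06), the loss arm -3.07 ± 0.38 (adjusted p = 1.52e-05), and the difference of differences 6.98 ± 0.53 (SE; adjusted p = 2.53e-08). The direct difference of AAVMCU and AAVshMCU was 6.88 (adjusted p = 1.33e-11), and that of AAVshLuc and Wild type 0.09 (adjusted p = 0.899).

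None of the 11 other measured genes of the uniporter complex and its partners was called by limma or had an unadjusted p below 0.05, and their differences of differences lay between -0.75 and 0.45. Among the gatekeepers the values were 0.01 for Micu2 and 0.45 for Micu3. Smdt1, which encodes EMRE, had 0.17, and Mcub, the dominant-negative paralogue, had -0.75. The sodium-calcium exchanger of mitochondria, Slc8b1 (NCLX), had 0.21, and the outer-membrane channels Vdac1, Vdac2 and Vdac3 had 0.20, 0.19 and 0.13. Apart from Mcub, these partners were outside the rule for named genes and were chosen after their values were seen.

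Across all genes the difference of differences was called for 535 genes, 2.36% of those tested at an adjusted p below 0.05: 318 were higher with gain than with loss (1.4%) and 217 lower (0.957%). The arms alone gave 100 calls for gain (0.441%), with 77 higher (0.34%) and 23 lower (0.101%), and 824 for loss (3.63%), with 365 higher (1.61%) and 459 lower (2.02%). A gene was counted as moving in opposite directions if its difference of differences was called and each arm had an unadjusted p below 0.05 with opposite sign. This rule took 216 genes (0.953%), of which 132 were higher with gain (0.582%) and 84 lower with gain (0.37%), and 160 of the 216 carry a gene symbol. The other 319 called genes had 1 arm past that p, 72 the gain arm and 247 the loss arm. Without the called difference, both arms had an unadjusted p below 0.05 with opposite signs in 343 genes (1.51%) and with one sign in 220 genes (0.97%), and the arms differed in sign in 51.2% of all genes. For reading the gene lists, 16.7% of all genes had an unadjusted p below 0.05 in the difference of differences, 47.2% had a difference above 0 and 52.8% one below 0.

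**Figure D1:**
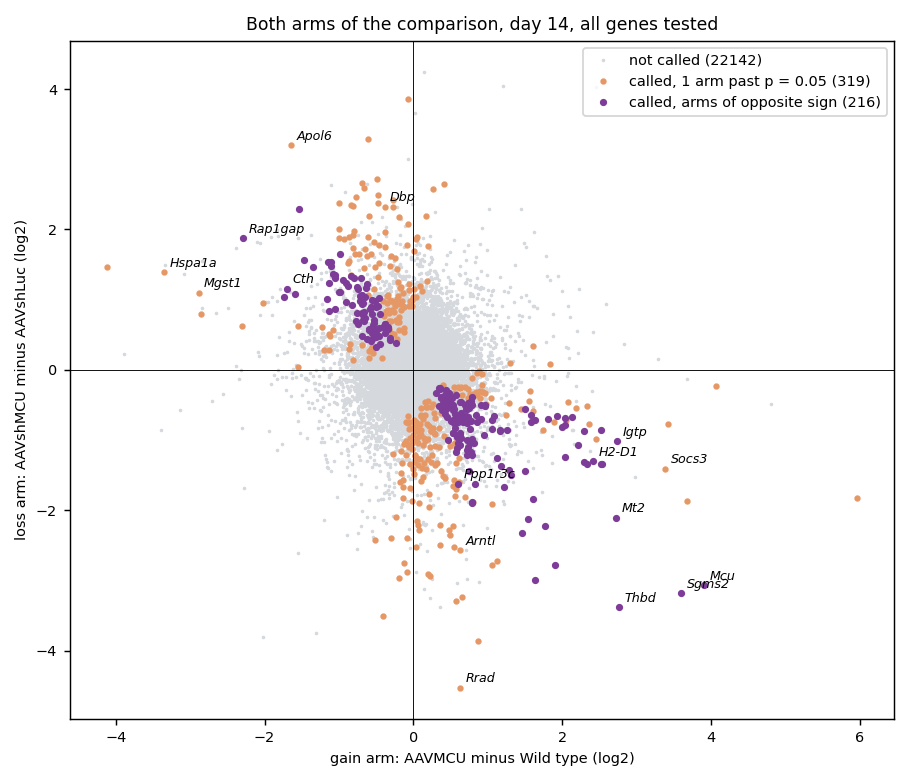
Loss arm (AAVshMCU minus AAVshLuc, log2, vertical axis) against gain arm (AAVMCU minus Wild type, log2, horizontal axis) for all genes tested at day 14, 1 point a gene. The 216 genes with arms of opposite sign lie in the lower right (132) and upper left (84), and Mcu lies farthest to the lower right among them.

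The groups did not overlap in either arm, and lay apart in opposite ways, for 111 genes (0.489%), and in the same way for 69 (0.304%). Of the 216 genes, 69 were separated in both arms. In AAVMCU minus AAVshMCU 119 of the 216 (55.1%) were called in the same direction, where 3410 of all 22677 genes were called in either direction. The sign there was the same for 201 of the 216, and 2, both higher with gain, were called with the other sign. In AAVshLuc minus Wild type 128 of the 216 were called in the direction of the difference of differences. Of these 128, 92 were not called in that direction in AAVMCU minus AAVshMCU, 49 of the 132 higher with gain and 43 of the 84 lower. The difference of differences is the sum of these 2 differences, so genes chosen by it are called more often in each by construction. How many of all genes were called in AAVshLuc minus Wild type is not given here. The split into higher and lower depended on the scaling: 59.4% of the called genes were higher with gain, against 82.7% with arrays scaled to their median and 40.3% with the percentile taken over probes well above background on all arrays. The median of all genes was -0.03 with the scaling used here, 0.17 with the median and -0.16 with the second percentile. Single arrays moved the counts: 983 genes were called and 420 were opposite without the fourth AAVshMCU fibre, the one that kept the most Mcu. Without the third Wild type fibre the counts were 321 and 131, and without the third AAVMCU fibre 349 and 141. Without the third AAVshMCU fibre 355 genes were called, and without the fourth AAVMCU fibre 141 were opposite.

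In all, 10 genes passed the adjusted threshold in each arm with opposite signs (0.0441%), against 3 with one sign (0.0132%). Of these, 9 have symbols: Mcu, H2-D1, H2-Q7, Igf2r, Trim35, Tgm2, Prss23 and Smad1 were higher with gain, and Rap1gap was lower.

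Mcu, the class I genes and Rap1gap are described separately. Igf2r, the receptor that clears IGF2 and sorts lysosomal enzymes, stood at 2.92, 2.91, 2.76 and 3.02 in AAVMCU fibres, against 2.51, 2.25, 2.05 and 2.55 in Wild type fibres. It stood at 2.81, 2.92, 2.59 and 2.66 in AAVshMCU fibres, against 3.38, 3.41, 3.56 and 3.44 in AAVshLuc fibres. Both arms separated, with AAVshLuc the highest group, and Igf2r had 1.27 ± 0.18 (SE; adjusted p = 3.17e-04), a direct difference of 0.16 (adjusted p = 0.417) and AAVshLuc minus Wild type of 1.11 (adjusted p = 4.23e-06). Trim35, a ubiquitin ligase, had 1.19 ± 0.18 (SE; adjusted p = 4.71e-04) with a direct difference of 0.12 (adjusted p = 0.563). Tgm2, the tissue transglutaminase, had 2.05 ± 0.32 (SE; adjusted p = 7.81e-04), and here AAVMCU fibres also exceeded AAVshMCU fibres directly, by 1.43 (adjusted p = 2.16e-04). Prss23, a serine protease, had 1.48 ± 0.23 (SE; adjusted p = 8.24e-04) with a direct difference of 0.93 (adjusted p = 6.44e-04), and Smad1, a transducer of BMP signals, 1.60 ± 0.28 (SE; adjusted p = 0.00189) with 0.68 (adjusted p = 0.0222). All 5 kept their calls of the difference of differences under every scaling, filter and covariate run and without any 1 array.

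Class I antigen presentation was the group with the most calls among the gene lists. Of 15 measured genes of the list, 5 rose with gain relative to loss and 0 fell (H2-D1, H2-Q2, B2m, H2-T23 and H2-K1), with a median of 0.34 over the list against -0.03 over all genes, of which 1.4% were called higher and 0.957% lower. H2-D1 encodes the heavy chain of a classical class I molecule. It stood at 5.15, 4.84, 4.13 and 5.23 in AAVMCU fibres, against 2.53, 2.55, 2.24 and 2.38 in Wild type fibres. With silencing it stood at 2.50, 2.33, 3.22 and 3.30 in AAVshMCU fibres, against 4.16, 4.02, 4.07 and 4.32 in AAVshLuc fibres. In both arms the groups lay apart, higher with gain and lower with loss. Its difference of differences was 3.72 ± 0.47 (SE; adjusted p = 1.08e-04), made of 2.41 ± 0.33 with gain and -1.30 ± 0.33 with loss. H2-Q7, a nonclassical class I gene, had 3.60 ± 0.51 (SE; adjusted p = 2.89e-04), and H2-K2 and H2-Q2, further class I loci, had 3.88 ± 0.60 (SE; adjusted p = 7.01e-04) and 3.38 ± 0.52 (SE; adjusted p = 5.89e-04). The class I genes share long stretches of sequence, so their probes may read one another's transcripts.

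B2m encodes beta-2 microglobulin, the light chain of class I molecules, and is not of that family by sequence. B2m levels were 3.35, 2.65, 2.81 and 3.32 in AAVMCU fibres, against 0.37, 1.20, 0.90 and 0.83 in Wild type fibres. In the other arm they were 0.67, 0.52, 1.53 and 1.51 in AAVshMCU fibres, against 2.12, 1.87, 2.23 and 2.29 in AAVshLuc fibres. The groups lay apart in both arms, and the difference of differences was 3.27 ± 0.47 (SE; adjusted p = 3.54e-04). H2-T23, which encodes the nonclassical molecule Qa-1, had 2.04 ± 0.33 (SE; adjusted p = 8.24e-04). H2-K1, chosen after its value was seen, had 2.54 ± 0.41 (SE; adjusted p = 8.68e-04), with a gain arm of 2.08 ± 0.29 and a loss arm of -0.45 ± 0.29 that did not pass (adjusted p = 0.414), and its second probe gave 5.68. For all of these genes the calls held under every scaling, filter and covariate run and without any 1 of the 16 arrays. AAVMCU fibres also exceeded AAVshMCU fibres directly, by 2.00 (adjusted p = 3.66e-04) for H2-D1 and 1.97 (adjusted p = 3.92e-04) for B2m, while AAVshLuc exceeded Wild type fibres by 1.72 (adjusted p = 0.00127) and 1.30 (adjusted p = 0.00926).

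Of 20 measured interferon and antiviral genes, 2 rose and 0 fell, and both encode interferon-inducible GTPases that act against intracellular pathogens (list median 0.95), against 1.4% and 0.957% of all genes. The list median was -0.11 in AAVMCU minus AAVshMCU and 0.81 in AAVshLuc minus Wild type, against 0.04 and -0.05 over all genes. Igtp stood at 1.03, -0.63, 1.01 and -0.94 in AAVMCU fibres, against -2.69, -2.66, -2.41 and -2.72 in Wild type fibres. It stood at -0.10, -0.43, -2.40 and -0.99 in AAVshMCU fibres, against -0.36, 0.15, -0.13 and 0.50 in AAVshLuc fibres. All overexpressing fibres lay above Wild type, whereas the silenced fibres overlapped their controls. Igtp had a difference of differences of 3.75 ± 0.67 (SE; adjusted p = 0.0022), and Irgm2 had 3.87 ± 0.69 (SE; adjusted p = 0.0022). The direct difference of the 2 MCU vectors did not pass for either gene: it was 1.10 (adjusted p = 0.114) for Igtp and 0.83 (adjusted p = 0.254) for Irgm2, while AAVshLuc exceeded Wild type fibres by 2.66 (adjusted p = 5.63e-04) and 3.04 (adjusted p = 2.15e-04). Macrophage and lymphocyte markers had 0 limma calls among 9 and 6 measured (1 and 1 at an unadjusted p below 0.05), and in RNA of a whole fibre with what adheres to it, fewer cells of a type and less RNA per cell cannot be told apart.

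The promoters of Igtp and Irgm2 are shown because both rose together and both windows hold the same pair of motifs. They are 300-base windows from RefSeq (GRCm38.p6), on the plus strand, at chr11:58199306-58199605 and chr11:58214727-58215026. Capitals mark a gamma-activated site (GAS, TTCNNNGAA) and an interferon-stimulated response element (ISRE, GAAA, any 2 bases and GAAA again), searched on both strands; the 2 do not overlap.
Igtp: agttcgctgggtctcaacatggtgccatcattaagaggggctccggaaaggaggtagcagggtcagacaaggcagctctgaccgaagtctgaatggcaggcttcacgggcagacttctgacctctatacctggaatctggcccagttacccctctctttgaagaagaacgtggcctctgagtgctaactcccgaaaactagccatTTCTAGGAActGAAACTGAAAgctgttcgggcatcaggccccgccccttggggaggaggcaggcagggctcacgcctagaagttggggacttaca
Irgm2: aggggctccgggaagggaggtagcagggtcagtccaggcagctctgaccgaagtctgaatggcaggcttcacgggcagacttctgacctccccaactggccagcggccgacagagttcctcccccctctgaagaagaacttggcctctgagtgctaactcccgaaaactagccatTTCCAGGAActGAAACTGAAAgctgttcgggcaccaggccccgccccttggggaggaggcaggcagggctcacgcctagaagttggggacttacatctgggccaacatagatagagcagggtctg
Counted from the start of transcription, the GAS begins at position -45 in Igtp and -75 in Irgm2, and the ISRE at -34 and -64. Over all 32851 promoter windows, 8.3% hold a GAS and 3.44% an ISRE. The windows of Igtp and Irgm2 share long stretches of nearly the same sequence, among them the stretch with both motifs. Their matches are therefore not independent of each other. The window of H2-D1 holds neither motif. A match describes the sequence and is not a measured site.

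Several called genes act in cytokine signalling through JAK and STAT. That pathway had no list and no count here, and Stat3, Jak1, Socs1 and Sbno2 were chosen after their values were seen, whereas Cebpd and Socs3 came from the rule for named genes, so they are described gene by gene. Stat3, a transcription factor activated by cytokines of the IL-6 family, stood at 3.39, 3.69, 4.00 and 3.72 in AAVMCU fibres, against 3.13, 3.22, 2.62 and 2.80 in Wild type fibres. It stood at 4.19, 3.31, 3.95 and 4.08 in AAVshMCU fibres, against 5.25, 4.87, 4.78 and 4.76 in AAVshLuc fibres. Both arms separated without overlap, but the highest group was AAVshLuc and the lowest Wild type. Stat3 had 1.79 ± 0.27 (SE; adjusted p = 4.71e-04), Jak1, the kinase upstream of it, 1.83 ± 0.34 (SE; adjusted p = 0.00339), Socs1, a feedback inhibitor of JAK kinases, 2.55 ± 0.50 (SE; adjusted p = 0.00506), and Sbno2, a transcriptional co-regulator induced by STAT3 signalling, 2.90 ± 0.59 (SE; adjusted p = 0.00713). Cebpd, a STAT3-responsive transcription factor, had 4.62 ± 0.99 (SE; adjusted p = 0.0115).

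Socs3, a feedback inhibitor of IL-6 signalling, was called through the gain arm alone. Socs3 levels were 2.38, 3.95, 3.98 and 4.19 in AAVMCU fibres, against 1.52, 2.58, -1.16 and -1.98 in Wild type fibres. In the silencing arm they were 4.91, 4.36, 5.02 and 5.20 in AAVshMCU fibres, against 6.57, 6.09, 6.21 and 6.26 in AAVshLuc fibres. The AAVshLuc fibres lay above all others, and 2 Wild type fibres lay far below the other two. The difference of differences was 4.79 ± 1.08 (SE; adjusted p = 0.0161), with a gain arm of 3.38 ± 0.76 and a loss arm of -1.41 ± 0.76 (adjusted p = 0.327). For 5 of these genes the direct difference of the MCU vectors did not pass: AAVMCU minus AAVshMCU was -0.18 (adjusted p = 0.547) for Stat3, 0.13 (adjusted p = 0.839) for Socs1, -0.21 (adjusted p = 0.775) for Sbno2, 0.61 (adjusted p = 0.596) for Cebpd and -1.25 (adjusted p = 0.277) for Socs3. AAVshLuc minus Wild type was 1.97, 2.42, 3.1, 4.01 and 6.04 for the same genes in that order. The calls of Cebpd and Socs3 were lost with the share of probes above background as a covariate (adjusted p = 0.0658 and 0.0719), and that of Cebpd with Myh4 and Myh1 as covariates (0.0671).

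Metallothioneins, small zinc-binding proteins induced by metals, glucocorticoids and inflammation, showed the same order of groups. Mt2 stood at 2.13, 4.86, 4.17 and 4.74 in AAVMCU fibres, against 1.31, 2.89, 0.56 and 0.25 in Wild type fibres. It stood at 5.48, 5.05, 4.86 and 6.11 in AAVshMCU fibres, against 7.67, 7.48, 7.37 and 7.39 in AAVshLuc fibres. The AAVshLuc fibres lay close together and above all 12 other fibres, and the Wild type fibres were the lowest group. Mt2 had 4.83 ± 0.93 (SE; adjusted p = 0.00467) and Mt1 had 3.46 ± 0.78 (SE; adjusted p = 0.0161). Here the direct difference ran the other way without passing, -1.40 (adjusted p = 0.15) for Mt2 and -0.85 (adjusted p = 0.309) for Mt1, and AAVshLuc exceeded Wild type by 6.23 (adjusted p = 1.49e-06) and 4.30 (adjusted p = 1.44e-05). Of the 24 measured antioxidant genes 3 rose (Mt1, Mt2 and Gstm1) and 1 fell (Mgst1), with a list median of 0.17, against 1.4% higher and 0.957% lower over all genes. Gstm1, a glutathione transferase, had 1.19 ± 0.32 (SE; adjusted p = 0.0481), a call that was lost without any 1 of 12 arrays (adjusted p up to 0.113). The call of Mt1 was lost with the share of probes above background as a covariate (adjusted p = 0.106).

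**Figure D2:**
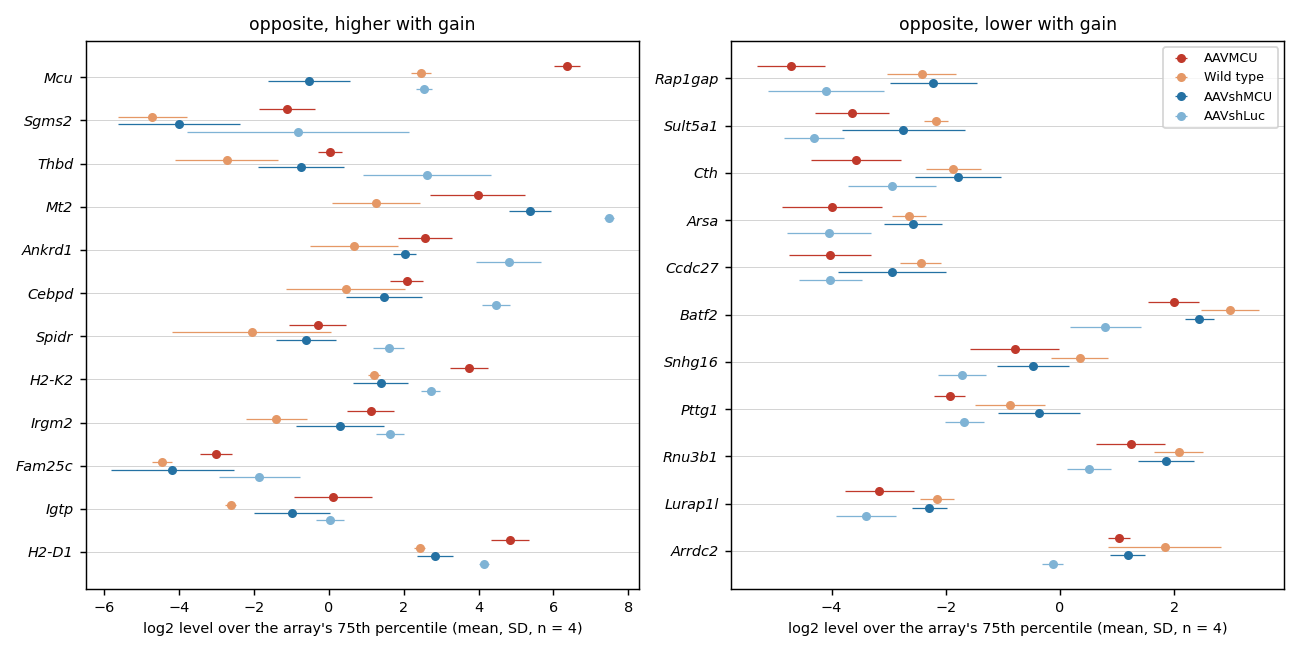
Group means (points) and SD (bars, n = 4) of the log2 level over the array's 75th percentile for genes of opposite sign with large differences, 12 higher with gain (left) and 11 lower (right). In the left panel Mcu and H2-D1 are highest in AAVMCU fibres, whereas Mt2, Thbd, Ankrd1 and Cebpd are highest in AAVshLuc fibres. Groups not well above background are drawn as measured.

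Further genes with large opposite differences were Thbd, Ankrd1, Sgms2, Spidr and Fam25c. Thbd encodes thrombomodulin, an anticoagulant receptor best known from endothelium. Thbd levels were -0.02, 0.10, -0.38 and 0.41 in AAVMCU fibres, against -2.37, -2.41, -1.48 and -4.68 in Wild type fibres. With silencing they were -0.98, -0.48, -2.15 and 0.63 in AAVshMCU fibres, against 5.10, 2.41, 1.26 and 1.77 in AAVshLuc fibres. Both arms separated, and the difference of differences was 6.15 ± 1.25 (SE; adjusted p = 0.00713), while the direct difference was 0.77 (adjusted p = 0.592) and AAVshLuc exceeded Wild type by 5.37. The 5 measured endothelial markers held 0 limma calls (1 at an unadjusted p below 0.05), and their summed level was 12.8 to 13.9 in AAVMCU, 13.0 to 13.6 in Wild type, 11.5 to 12.7 in AAVshMCU and 13.1 to 14.5 in AAVshLuc fibres.

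Ankrd1, a stretch-responsive protein of the titin complex, averaged 2.57 ± 0.72 in AAVMCU and 0.66 ± 1.17 in Wild type fibres (SD, n = 4 each). It averaged 2.03 ± 0.31 in AAVshMCU and 4.80 ± 0.87 in AAVshLuc fibres. The AAVshLuc fibres lay above all silenced fibres, and Ankrd1 had 4.68 ± 1.09 (SE; adjusted p = 0.0208). For Ankrd1 the direct difference was 0.54 (adjusted p = 0.677) and AAVshLuc minus Wild type 4.14. Its call was lost with Myh4 and Myh1 as covariates (adjusted p = 0.0514) and with the share of probes above background (0.0551). Sgms2, a sphingomyelin synthase, was well above background in all AAVMCU and no Wild type fibres and was at least 8.25-fold higher in AAVMCU fibres (adjusted p of the gain arm 0.198, of the difference of differences 0.0235). Its call was lost without any 1 of 6 arrays (adjusted p up to 0.0568). Spidr, a scaffold of homologous recombination, averaged -0.30 ± 0.76 in AAVMCU and -2.06 ± 2.12 in Wild type fibres. It averaged -0.61 ± 0.81 in AAVshMCU and 1.61 ± 0.41 in AAVshLuc fibres, with a difference of differences of 3.98 ± 1.02 (SE; adjusted p = 0.0369), and lost its call without any 1 of 10 arrays (adjusted p up to 0.0843). The direct difference of Spidr was 0.31 (adjusted p = 0.807). Fam25c was well above background in 1 of 4 AAVMCU fibres and no Wild type fibre, was at least 2.36-fold higher in AAVMCU fibres (adjusted p of the difference of differences 0.0299), and lost its call without any 1 of 8 arrays (adjusted p up to 0.0687).

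Ppp1r3c, chosen after its values were seen, encodes the targeting subunit of protein phosphatase 1 that promotes glycogen synthesis. Ppp1r3c stood at 4.07, 4.20, 4.16 and 4.06 in AAVMCU fibres, against 3.25, 4.13, 3.31 and 3.40 in Wild type fibres. It stood at 1.99, 2.32, 1.75 and 2.14 in AAVshMCU fibres, against 3.72, 3.36, 3.86 and 3.74 in AAVshLuc fibres. All silenced fibres lay below every other fibre, while 1 Wild type fibre overlapped the AAVMCU fibres. The difference of differences was 2.22 ± 0.32 (SE; adjusted p = 4.01e-04), the direct difference 2.07 (adjusted p = 2.66e-06) and AAVshLuc minus Wild type 0.15 (adjusted p = 0.715). The call held under every alternative run and without any 1 array.

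Igfbp5, a binding protein of insulin-like growth factors, stood at 6.61, 6.39, 6.71 and 6.73 in AAVMCU fibres, against 5.81, 6.05, 5.45 and 5.99 in Wild type fibres. It stood at 5.34, 4.90, 5.34 and 4.91 in AAVshMCU fibres, against 6.23, 6.39, 5.90 and 5.91 in AAVshLuc fibres. The groups lay apart in both arms, and Igfbp5 had 1.77 ± 0.33 (SE; adjusted p = 0.0039), with a direct difference of 1.49 (adjusted p = 2.16e-04). Eif4ebp1, the translation repressor that mTORC1 inactivates and a target of FoxO factors, had 1.54 ± 0.34 (SE; adjusted p = 0.015). For Eif4ebp1 the direct difference was 0.51 (adjusted p = 0.159) and AAVshLuc minus Wild type 1.04 (adjusted p = 0.0051). Acvr2b, the receptor through which myostatin limits muscle mass, was lower with gain relative to loss, at -1.13 ± 0.27 (SE; adjusted p = 0.0226). It averaged 1.53 ± 0.12 in AAVMCU and 1.85 ± 0.47 in Wild type fibres (SD, n = 4 each). It averaged 2.56 ± 0.22 in AAVshMCU and 1.75 ± 0.16 in AAVshLuc fibres, so that the silenced fibres held the most. Of 27 measured genes of IGF1, AKT and mTOR signalling, these 2 rose and Acvr2b fell (list median 0.48), against 1.4% and 0.957% of all genes. A difference above 0 was found in 22 of the 27, against 47.2% of all genes. Rps6kb1, the kinase that mTORC1 activates, had 0.61 (adjusted p = 0.0856). Among genes chosen after their values were seen, Igf1 had 0.45 (adjusted p = 0.433), Akt2 0.53 (0.0874) and Mstn, which encodes myostatin, 2.93 (0.187). The call of Acvr2b was lost without the third AAVMCU, the first or the fourth Wild type or the fourth AAVshLuc fibre (adjusted p up to 0.055) and with either covariate of fibre type or signal share (0.0706 and 0.105), and that of Eif4ebp1 with Myh4 and Myh1 as covariates (0.056).

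Cited4, chosen after its values were seen, is a transcriptional co-regulator described in exercised heart. Cited4 levels were 3.26, 3.11, 3.20 and 3.43 in AAVMCU fibres, against 0.93, 2.53, 1.27 and 2.27 in Wild type fibres. In the silencing arm they were -0.04, 1.01, -0.73 and 2.65 in AAVshMCU fibres, against 2.42, 2.82, 1.55 and 1.88 in AAVshLuc fibres. The overexpressing fibres lay above all Wild type fibres, and 3 of 4 silenced fibres lay below their controls, the exception being the fourth, which kept the most Mcu. The difference of differences was 2.94 ± 0.73 (SE; adjusted p = 0.0289), and it was lost without any 1 of 8 arrays (adjusted p up to 0.0693). Xirp2, an actin-binding protein of intercalated discs and Z-discs, had 1.61 ± 0.33 (SE; adjusted p = 0.00827), with a direct difference of 1.21 (adjusted p = 0.00142), and its call was lost when only the 16 arrays of day 14 were fitted (adjusted p = 0.0557). Of the 18 measured stretch and Z-disc genes Ankrd1 and Xirp2 rose and 0 fell (list median 0.18), against 1.4% and 0.957% of all genes.

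Of 14 measured genes of calcium reuptake, buffering and store-operated entry 1 was called, Srl, against 2.36% of all genes, while Orai1, Casq1 and Stim2 had 0.84, 1.18 and 1.54 (adjusted p = 0.0791, 0.157 and 0.181). Srl encodes sarcalumenin, a calcium-binding protein of the reticulum. Srl stood at 6.11, 6.24, 6.33 and 6.34 in AAVMCU fibres, against 5.54, 5.69, 5.30 and 5.35 in Wild type fibres. It stood at 5.39, 5.55, 5.10 and 5.68 in AAVshMCU fibres, against 5.66, 5.82, 5.89 and 5.90 in AAVshLuc fibres. AAVMCU fibres lay above all 12 others, and the difference of differences was 1.17 ± 0.18 (SE; adjusted p = 5.89e-04). Asph, whose locus also encodes the reticulum protein junctin, had 0.88 ± 0.23 (SE; adjusted p = 0.0384), a call that was lost without any 1 of 11 arrays (adjusted p up to 0.0972). Mylpf, the regulatory light chain of fast myosin, had 1.40 ± 0.34 (SE; adjusted p = 0.0264), lost without any 1 of 5 arrays (adjusted p up to 0.0652), with Myh4 and Myh1 as covariates (0.0913) and with the share of probes above background (0.0971). Of 21 measured genes of excitation-contraction coupling 2 rose (Asph and Rrad) and 0 fell, against 1.4% and 0.957% of all genes (list median 0.83). All 21 had a difference above 0, against 47.2% of all genes, and 12 an unadjusted p below 0.05, against 16.7%. The median of this list was 0.39 with Myh4 and Myh1 as covariates and 0.55 without the third AAVshMCU fibre. Of 11 fast sarcomere genes 1 was called, Mylpf, with a list median of 0.56, which was 0.16 with Myh4 and Myh1 as covariates and 0.43 without the third AAVshMCU fibre.

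**Figure D3:**
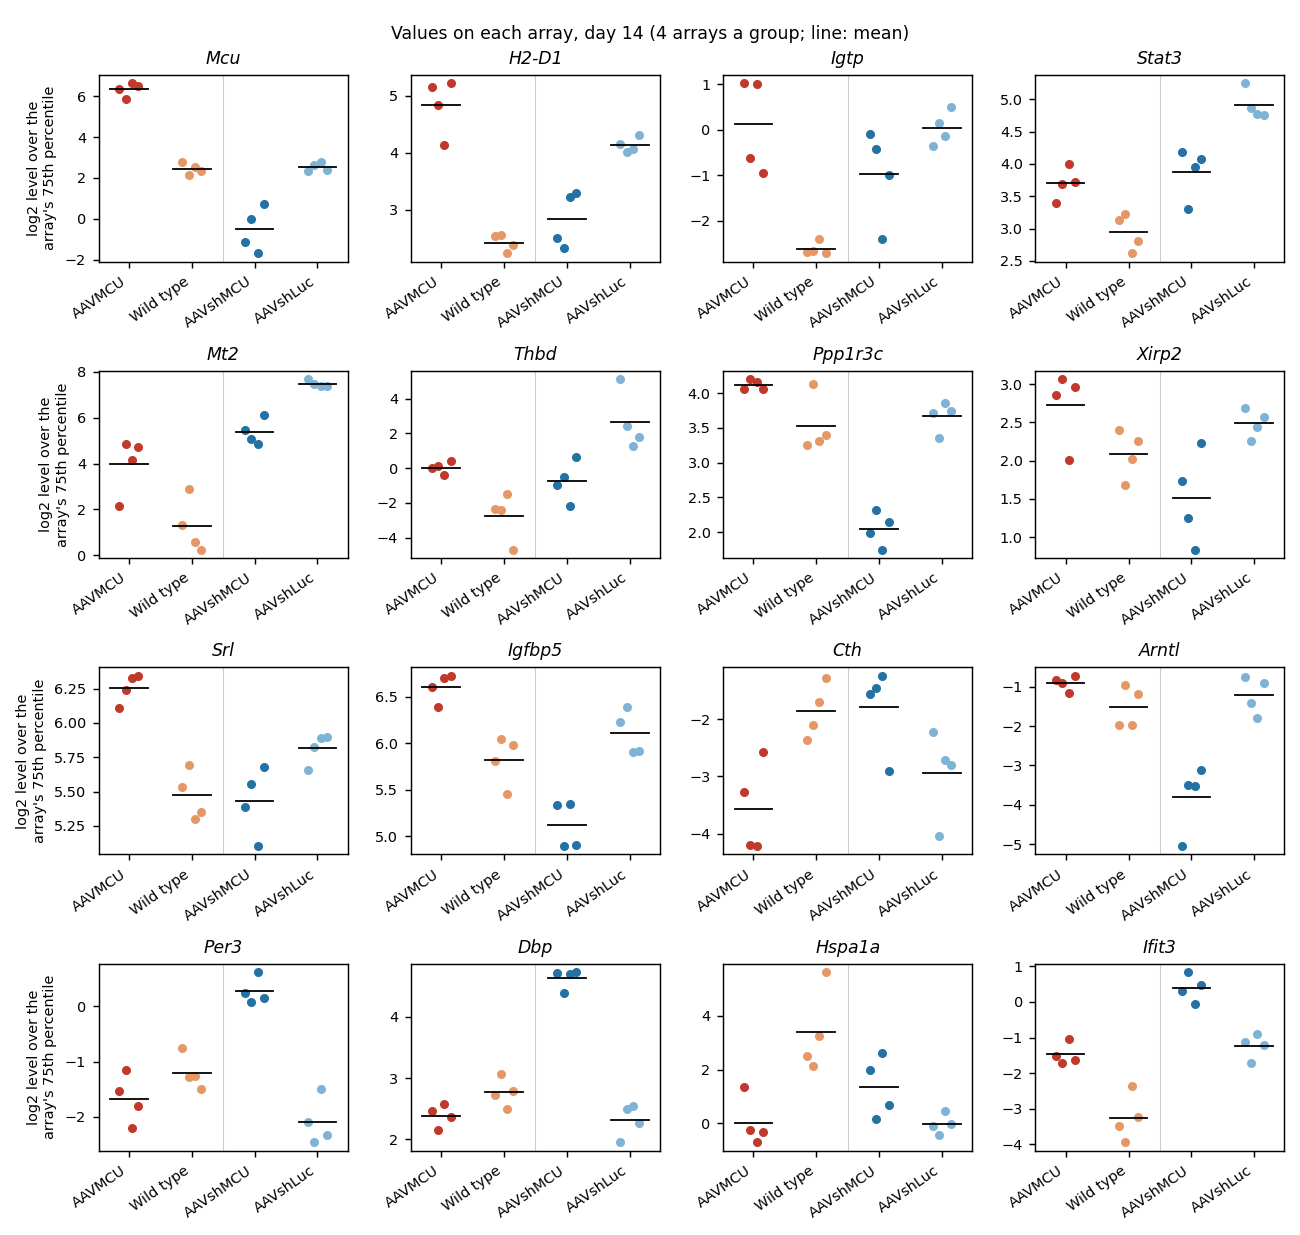
Log2 level over the array's 75th percentile on each of the 16 arrays of day 14 (points) with group means (lines) for 16 genes, in the order AAVMCU, Wild type, AAVshMCU, AAVshLuc. Ppp1r3c, Arntl, Per3 and Dbp stand apart in AAVshMCU fibres, and Mcu in both MCU vectors.

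Of the 84 genes of opposite sign that were lower with gain, 68 were well above background on 1 or more arrays in every group, while several of those with the largest differences have only a bound. Rap1gap, which switches off the small GTPase Rap1, was well above background in 0 of 4 AAVMCU fibres and 3 of 4 Wild type fibres, and was at least 2.89-fold lower in AAVMCU fibres (adjusted p of the gain arm 0.04, of the difference of differences 0.00198). Its levels in the other arm were -2.40, -3.21, -1.76 and -1.51 in AAVshMCU fibres, against -4.37, -4.94, -4.45 and -2.62 in AAVshLuc fibres. Here 3 of 4 controls lay below all silenced fibres. Cth, the enzyme that makes cysteine from cystathionine, was well above background in 0 of 4 AAVMCU fibres and 4 of 4 Wild type fibres, and was at least 3.05-fold lower in AAVMCU fibres (adjusted p of the difference of differences 0.0126). Sult5a1, Ccdc27 and Arsa were not well above background in any AAVMCU fibre, and were so in 4, 4 and 1 of 4 Wild type fibres. Sult5a1, a sulfotransferase, was at least 2.47-fold lower in AAVMCU than in Wild type fibres (adjusted p of the difference of differences 0.0222). Ccdc27 was at least 2.59-fold lower there (adjusted p = 0.0161), and Arsa, the lysosomal arylsulfatase A, at least 1.86-fold lower (adjusted p = 0.0398). Lurap1l was not well above background in any AAVshLuc fibre and was at least 2.16-fold higher in AAVshMCU fibres (adjusted p of the difference of differences 0.0391).

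Arsa and Lurap1l each lost their call without any 1 of 10 arrays (adjusted p up to 0.0937 and 0.0888), and Sult5a1 without the second AAVMCU or the fourth AAVshLuc fibre (adjusted p up to 0.0547). Background correction by normexp also ended the calls of Cth, Sult5a1, Ccdc27, Arsa and Lurap1l (adjusted p = 0.0526, 0.151, 0.181, 0.134 and 0.08).

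Batf2, an interferon-responsive transcription factor, had -2.63 ± 0.58 (SE; adjusted p = 0.0147). Snhg16, a host gene of small nucleolar RNAs, had -2.37 ± 0.56 (SE; adjusted p = 0.0212), and Rnu3b1, a U3 small nucleolar RNA, -2.18 ± 0.45 (SE; adjusted p = 0.00819). Pttg1, which encodes securin, had -2.36 ± 0.56 (SE; adjusted p = 0.0228), and Arrdc2, an arrestin-domain protein, -2.11 ± 0.42 (SE; adjusted p = 0.00576). In Batf2, Snhg16, Rnu3b1 and Arrdc2 the AAVshLuc fibres were lowest, with means of 0.80 ± 0.63, -1.71 ± 0.43, 0.51 ± 0.39 and -0.13 ± 0.19 (SD, n = 4). Their direct differences did not pass, at -0.45, -0.32, -0.62 and -0.15. For Pttg1 the direct difference was -1.56 (adjusted p = 0.0103). Snhg16 lost its call without the second AAVMCU fibre (adjusted p = 0.0509), Pttg1 without the third AAVMCU, the third Wild type, the third AAVshMCU or the first AAVshLuc fibre (up to 0.062), and Batf2 with Myh4 and Myh1 as covariates (0.0551).

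Fatty acid uptake and oxidation had the lowest median of the gene lists, -0.66 against -0.03 over all genes, made of -0.32 in the gain arm and 0.42 in the loss arm. The list had a median of -0.71 in AAVMCU minus AAVshMCU and 0.05 in AAVshLuc minus Wild type. Of its 29 measured genes 0 rose and 2 fell, against 1.4% and 0.957% of all genes, and 26 had a difference below 0, against 52.8%. Mlycd, which removes malonyl-CoA, the inhibitor of fatty acid entry into mitochondria, averaged 1.91 ± 0.16 in AAVMCU and 2.49 ± 0.25 in Wild type fibres (SD, n = 4 each). It averaged 3.25 ± 0.43 in AAVshMCU and 2.85 ± 0.21 in AAVshLuc fibres, with a difference of differences of -0.98 ± 0.26 (SE; adjusted p = 0.0413). Ucp3, the uncoupling protein of muscle that rises with fatty acid use, had -1.42 ± 0.34 (SE; adjusted p = 0.0235), carried by the loss arm at 1.07 ± 0.24. The call of Mlycd was lost without any 1 of 12 arrays and that of Ucp3 without the fourth AAVMCU, the first Wild type, the third AAVshMCU or the first AAVshLuc fibre (adjusted p up to 0.0973 and 0.0577). Both were also lost with Myh4 and Myh1 as covariates (0.183 and 0.0591), with the share of probes above background (0.156 and 0.0554), with arrays scaled to their median (0.098 and 0.0505) and with only the 16 arrays of day 14 (0.0901 and 0.0608). That of Mlycd was lost without a filter on dim probes (0.0711) and with the replicate block (0.0512), and that of Ucp3 with the mean of all kept probes (0.142).

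Markers of fast-fibre subtypes varied among these fibres, and were chosen for display after their values were seen. Myh4, the myosin of type IIB fibres, stood at 7.56, 7.19, 7.70 and 7.71 in AAVMCU fibres, against 7.35, 7.40, 7.35 and 7.45 in Wild type fibres. It stood at 5.92, 7.38, 0.37 and 7.46 in AAVshMCU fibres, against 7.41, 7.52, 7.56 and 7.46 in AAVshLuc fibres. Actn3, the alpha-actinin of fast fibres, stood at 7.73, 7.61, 7.87 and 7.88 in AAVMCU fibres, against 6.70, 7.70, 6.78 and 7.28 in Wild type fibres. It stood at 6.10, 7.07, -2.29 and 7.66 in AAVshMCU fibres, against 6.95, 6.99, 6.70 and 6.72 in AAVshLuc fibres. The third AAVshMCU fibre was far below all others for both genes. Myh1, the myosin of type IIX fibres, stood at 3.52, 3.34, 1.61 and 5.29 in AAVMCU fibres, against 3.58, 0.43, 0.23 and -0.30 in Wild type fibres. It stood at 7.91, 4.61, 7.52 and 5.48 in AAVshMCU fibres, against -1.10, 1.53, 4.76 and 4.18 in AAVshLuc fibres. All but 1 of the silenced fibres lay above their controls, with a loss arm of 4.03 ± 1.24 (adjusted p = 0.0677). In the difference of differences Myh1 had -1.58 ± 1.75 (SE; adjusted p = 0.701), Myh4 2.36 ± 1.17 (SE; adjusted p = 0.311) and Actn3 2.87 ± 1.66 (SE; adjusted p = 0.397), so none was called. With Myh4 and Myh1 as covariates the median of the fatty acid list was -0.17, that of complex I -0.17 and that of complexes II to V -0.20. Without the third AAVshMCU fibre they were -0.41, -0.27 and -0.27.

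The respiratory chain and the TCA cycle held 0 limma calls in either direction, with 7 of 37, 3 of 42 and 2 of 25 genes at an unadjusted p below 0.05, against 16.7% of all genes: complex I had a median of -0.28 over 37 measured genes, complexes II to V -0.29 over 42, and the TCA cycle -0.23 over 25. Of the 37 and 42 genes, 35 and 40 had a difference below 0, against 52.8% of all genes. The sign of these medians was the same under all 5 scalings and background corrections run, but with arrays scaled to their median the values were -0.08, -0.09 and -0.03, against a median of 0.17 over all genes. Of 23 measured genes of PGC-1 and mitochondrial biogenesis 0 were called by limma (6 at an unadjusted p below 0.05, against 16.7% of all genes), and Ppargc1a, chosen after its value was seen, the coactivator that drives that programme, had -0.35 (adjusted p = 0.756). No call does not show that these genes did not differ.

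Of the other gene lists, glycolysis and glucose uptake held 1 rise (Slc2a1) of 28 measured genes, and the integrated and mitochondrial stress response 1 fall (Cth) of 20, against 1.4% higher and 0.957% lower over all genes. The lists of immediate-early genes (24 measured), calcineurin and its targets (18), autophagy and mitophagy (27), the proteasome (31), pyruvate and calcium-sensitive dehydrogenases (19), mitochondrial fusion and fission (14), NAD synthesis and sirtuins (14) and the slow sarcomere (10) held 0 limma calls each, with 30 of their 157 measured genes at an unadjusted p below 0.05 (19.1%, against 16.7% of all genes). Their medians were 0.65, 0.18, 0.15, 0.24, -0.25, -0.13, -0.24 and 0.00 in that order. For the immediate-early list the median was -1.22 in AAVMCU minus AAVshMCU and 1.81 in AAVshLuc minus Wild type. With arrays scaled to their median the fusion and fission list turned to 0.07 and the stress response list to 0.14, against -0.05 with the scaling used here.

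**Figure D4:**
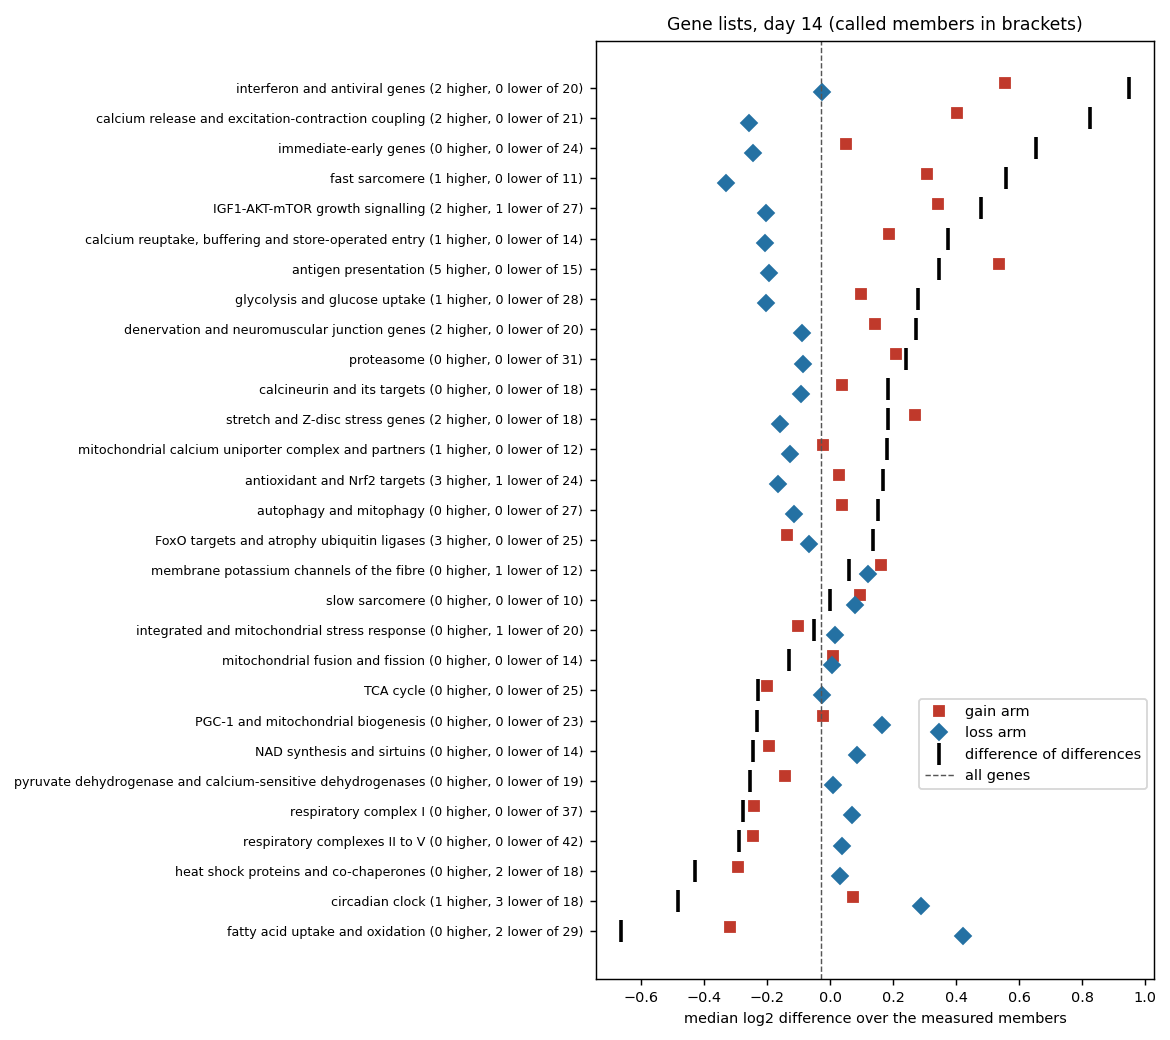
Median log2 difference over the measured members of 29 gene lists in the gain arm (squares), the loss arm (diamonds) and the difference of differences (bars), with called members in brackets. Interferon genes have the highest median (0.95) and fatty acid genes the lowest (-0.66), against -0.03 over all genes (dashed line).

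Among the called genes with 1 arm past its p, 72 were carried by gain. Of 18 measured genes of heat shock proteins and co-chaperones 2 fell (Hspa1a and Dnajb1) and 0 rose, against 0.957% and 1.4% of all genes (list median -0.43). Hspa1a, an inducible HSP70, stood at 1.36, -0.23, -0.70 and -0.30 in AAVMCU fibres, against 2.50, 2.15, 3.26 and 5.61 in Wild type fibres. It stood at 1.97, 0.18, 2.62 and 0.70 in AAVshMCU fibres, against -0.08, -0.44, 0.48 and -0.04 in AAVshLuc fibres. AAVMCU fibres lay below all Wild type fibres, and so did the AAVshLuc fibres, which carried a vector too. The silenced fibres overlapped their controls. For Hspa1a the direct difference of the MCU vectors did not pass, at -1.34 (adjusted p = 0.238). Hspa1a had -4.73 ± 1.07 (SE; adjusted p = 0.0167) and Dnajb1, its HSP40 partner, -3.65 ± 0.76 (SE; adjusted p = 0.0092). Mgst1, a microsomal glutathione transferase, averaged -2.79 ± 0.62 in AAVMCU and 0.10 ± 0.86 in Wild type fibres (SD, n = 4 each). It averaged 0.15 ± 1.01 in AAVshMCU and -0.95 ± 1.00 in AAVshLuc fibres, and had -3.99 ± 0.92 (SE; adjusted p = 0.0202). The calls of Hspa1a and Mgst1 were lost with Myh4 and Myh1 as covariates (adjusted p = 0.083 and 0.0749) and with the share of probes above background (0.0614 and 0.0706), and Mgst1 also without the third Wild type or the third AAVshMCU fibre (up to 0.0542).

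Higher with gain were Serpinb1c and Fras1. Serpinb1c, a serine protease inhibitor, was not well above background in any Wild type fibre and was at least 13.7-fold higher in AAVMCU fibres (adjusted p of the gain arm 9.46e-04, of the difference of differences 0.00696). Fras1, a protein of basement membranes, averaged 0.15 ± 0.45 in AAVMCU and -3.27 ± 1.52 in Wild type fibres (SD, n = 4 each). It averaged -2.68 ± 1.36 in AAVshMCU and -1.92 ± 0.95 in AAVshLuc fibres, and had 4.19 ± 0.92 (SE; adjusted p = 0.0137), lost when only the 16 arrays of day 14 were fitted (adjusted p = 0.0547). For both genes AAVMCU fibres exceeded all AAVshMCU fibres, with direct differences of 2.84 (adjusted p = 0.00524) for Fras1 and an adjusted p of 0.00167 for Serpinb1c. Fbxo30, an atrophy ubiquitin ligase also called MUSA1, had 1.90 ± 0.46 (SE; adjusted p = 0.0235), with AAVshLuc fibres highest at 1.79 ± 0.34, and lost its call without any 1 of 5 arrays (adjusted p up to 0.0606).

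The 247 genes carried by the loss arm included 3 of the 4 called genes of the circadian clock. Arntl encodes BMAL1, the activator at the core of the clock, and Per3 and Dbp are among its output genes. Dbp stood at 2.46, 2.15, 2.57 and 2.37 in AAVMCU fibres, against 2.73, 3.08, 2.50 and 2.78 in Wild type fibres. It stood at 4.71, 4.39, 4.70 and 4.73 in AAVshMCU fibres, against 1.95, 2.49, 2.55 and 2.26 in AAVshLuc fibres. All silenced fibres lay above all 12 others. Dbp had a loss arm of 2.32 ± 0.19 (adjusted p = 8.42e-08), a gain arm of -0.39 ± 0.19 (adjusted p = 0.447) and a difference of differences of -2.71 ± 0.27 (SE; adjusted p = 3.14e-06). Per3 stood at -1.53, -1.16, -2.20 and -1.79 in AAVMCU fibres, against -0.75, -1.28, -1.26 and -1.49 in Wild type fibres. It stood at 0.25, 0.08, 0.61 and 0.16 in AAVshMCU fibres, against -2.10, -2.46, -1.50 and -2.33 in AAVshLuc fibres. Again the silenced fibres lay above all others, with -2.84 ± 0.45 (SE; adjusted p = 8.24e-04).

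Arntl ran the other way. Arntl levels were -0.83, -0.90, -1.15 and -0.73 in AAVMCU fibres, against -1.98, -0.96, -1.96 and -1.20 in Wild type fibres. In the silencing arm they were -5.04, -3.50, -3.52 and -3.11 in AAVshMCU fibres, against -0.76, -1.42, -1.79 and -0.92 in AAVshLuc fibres. No silenced fibre was well above background, and Arntl was at least 4.96-fold lower in AAVshMCU than in AAVshLuc fibres (adjusted p of the loss arm 3.42e-05, of the difference of differences 4.71e-04). Nr1d2, which encodes REV-ERBbeta, a repressor of Arntl, was of opposite sign in the arms, with -0.92 ± 0.20 (SE; adjusted p = 0.00999), -0.35 ± 0.14 with gain and 0.58 ± 0.14 with loss. Of 18 measured clock genes 1 rose and 3 fell, against 1.4% and 0.957% of all genes, and 12 had an unadjusted p below 0.05, against 16.7%. In the loss arm 6 of them were called higher and 3 lower, against 1.61% and 2.02% of all genes. In the gain arm 0 were called higher and 1 lower, against 0.34% and 0.101%. AAVshLuc and Wild type fibres differed by -0.46 (adjusted p = 0.105) for Dbp, -0.90 (adjusted p = 0.0554) for Per3 and 0.30 (adjusted p = 0.59) for Arntl. The hour at which each fibre was collected is not given in the sources used here, so hour and vector cannot be told apart. Dbp, Per3 and Arntl kept their calls under every alternative run and without any 1 array, and Nr1d2 lost its call with arrays scaled to their median (adjusted p = 0.0644).

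The promoter of Per3 is shown because Per3 and Dbp moved together and DBP, the protein of Dbp, binds the D-box (TTATGTAA). The window is from RefSeq (GRCm38.p6), on the minus strand at chr4:151044616-151044915, with D-boxes on either strand in capitals.
Per3: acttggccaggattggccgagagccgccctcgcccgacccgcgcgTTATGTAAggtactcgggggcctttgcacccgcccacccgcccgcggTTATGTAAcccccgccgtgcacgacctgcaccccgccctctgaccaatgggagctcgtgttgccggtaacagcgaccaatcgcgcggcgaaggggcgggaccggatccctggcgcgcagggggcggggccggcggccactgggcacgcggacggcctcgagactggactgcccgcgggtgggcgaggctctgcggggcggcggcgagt
The window holds 2 D-boxes, which begin at positions -205 and -158 from the start, and a D-box is found in 0.938% of all 32851 windows. The windows of Dbp, Nr1d2 and Arntl hold none. The E-box of BMAL1 (CACGTG) is in 7.15% of windows and in none of these 4 genes' windows.

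Other genes carried by loss were highest in AAVshLuc fibres. Rrad, a small GTPase that inhibits calcium channels of the surface membrane, stood at 0.31, -0.11, 1.08 and -0.19 in AAVMCU fibres, against -0.34, -0.66, 0.13 and -0.55 in Wild type fibres. It stood at -0.52, -0.19, 0.21 and 1.76 in AAVshMCU fibres, against 6.53, 4.25, 4.22 and 4.37 in AAVshLuc fibres. The AAVshLuc fibres lay above all 12 others, and the other 3 groups overlapped. Rrad had 5.16 ± 1.02 (SE; adjusted p = 0.00569), with a direct difference of -0.04 (adjusted p = 0.978) and AAVshLuc minus Wild type of 5.20 (adjusted p = 4.29e-05). Sphk1, which makes sphingosine 1-phosphate, had 3.89 ± 0.79 (SE; adjusted p = 0.00723), with an adjusted p of 0.0651 when all its probes were averaged, and Slc2a1, the basal glucose transporter GLUT1, 2.96 ± 0.77 (SE; adjusted p = 0.0398). Myod1, a myogenic transcription factor, had 0.93 ± 0.19 (SE; adjusted p = 0.00967), and Trim63, the atrophy ubiquitin ligase MuRF1, 1.65 ± 0.42 (SE; adjusted p = 0.0345). Gdpd3, a lysophospholipase D, was not well above background in any Wild type or AAVshMCU fibre and was at least 14.5-fold lower in AAVshMCU than in AAVshLuc fibres (adjusted p of the difference of differences 1.74e-04). Slc2a1 and Trim63 each lost their call without any 1 of 11 arrays (adjusted p up to 0.0926 and 0.0818).

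Pvr, the poliovirus receptor, was not well above background in any AAVshMCU fibre and was at least 6.14-fold lower there than in AAVshLuc fibres (adjusted p of the difference of differences 0.0363). Sh3bp2, an adaptor protein, was well above background in no Wild type fibre and 2 of 4 AAVMCU fibres, and was at least 2.01-fold higher in AAVMCU fibres (adjusted p of the difference of differences 0.0463). These calls were lost without any 1 of 8 and 12 arrays (adjusted p up to 0.0874 and 0.105). Of 25 measured FoxO and atrophy genes 3 rose (Trim63, Fbxo30 and Eif4ebp1) and 0 fell, with a list median of 0.14, and of 20 genes of denervation and the neuromuscular junction 2 rose (Myod1 and Ankrd1) and 0 fell (0.27), against 1.4% and 0.957% of all genes.

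Lower with gain relative to loss, and carried by the loss arm, were Cxcr6, Apol6, Ppp2r2c, Sowaha and Ighv14-2. Cxcr6, a chemokine receptor known from lymphocytes, stood at -0.39, -1.18, -2.20 and -1.28 in AAVMCU fibres, against -0.36, -0.86, -1.03 and -2.51 in Wild type fibres. It stood at 0.96, -0.65, 1.01 and -0.50 in AAVshMCU fibres, against -5.15, -2.79, -1.89 and -4.79 in AAVshLuc fibres. The silenced fibres lay above their controls, of which 1 was well above background, and Cxcr6 had -3.94 ± 0.80 (SE; adjusted p = 0.00719), a call lost when only the 16 arrays of day 14 were fitted (adjusted p = 0.0558). The lymphocyte markers held 0 limma calls (1 of 6 at an unadjusted p below 0.05), with a summed level of 8.65 to 10.6 in AAVMCU, 8.82 to 9.91 in Wild type, 8.28 to 10.2 in AAVshMCU and 7.35 to 9.0 in AAVshLuc fibres. Apol6 and Ppp2r2c were not well above background in any AAVshLuc fibre, and were at least 6.13-fold and 4.57-fold higher in AAVshMCU fibres (adjusted p of the difference of differences 0.0241 and 0.00257). Sowaha had -3.19 ± 0.83 (SE; adjusted p = 0.0393) and lost its call without any 1 of 10 arrays (adjusted p up to 0.0872), and Apol6 without any 1 of 5 (up to 0.0621). Ighv14-2 had -3.38 ± 0.75 (SE; adjusted p = 0.0152), but a second probe of that gene gave 0.27, and the mean of both was not called (adjusted p = 0.0568).

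Abcc9 encodes SUR2, the regulatory subunit of the ATP-sensitive potassium channel of muscle. Abcc9 levels were 1.63, 1.53, 1.58 and 1.72 in AAVMCU fibres, against 1.25, 1.51, 1.08 and 1.57 in Wild type fibres. With silencing they were 4.21, 4.14, 3.86 and 4.42 in AAVshMCU fibres, against 1.58, 1.77, 1.57 and 1.40 in AAVshLuc fibres. The silenced fibres lay above all 12 others, and the other 3 groups overlapped. The loss arm was 2.58 ± 0.17 (adjusted p = 5.54e-10), the gain arm 0.26 ± 0.17 (adjusted p = 0.576) and the difference of differences -2.32 ± 0.23 (SE; adjusted p = 3.14e-06). It was the 1 called gene of 12 measured potassium channel genes of the fibre, against 2.36% of all genes.

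A gene that moved the same way in both arms gives the contrast. Ifit3, an interferon-induced antiviral protein, stood at -1.52, -1.72, -1.03 and -1.63 in AAVMCU fibres, against -3.47, -3.94, -2.37 and -3.22 in Wild type fibres. It stood at 0.32, 0.84, -0.06 and 0.48 in AAVshMCU fibres, against -1.12, -1.71, -0.89 and -1.22 in AAVshLuc fibres. The treated fibres lay above their controls in both arms, by 1.78 ± 0.33 (adjusted p = 0.00904) with gain and 1.63 ± 0.33 (adjusted p = 0.00552) with loss. The AAVshLuc fibres also lay above all Wild type fibres and overlapped the AAVMCU fibres. In the gain arm, vector and MCU cannot be told apart for this gene. The difference of differences, 0.15 ± 0.47, did not pass (adjusted p = 0.916). The gain arm was not called with normexp background correction (adjusted p = 0.194).

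At day 7 there were 14 arrays of the same groups, with 3 AAVMCU and 3 AAVshMCU fibres. Their levels do not enter the differences of day 14, but the fit takes part of its estimate of spread from them, and the gain arm of day 7 likewise sets a vector against none. There the same difference of differences was called for 1398 genes, 6.16% of those tested (616 higher, 2.72%, and 782 lower, 3.45%). Of the 216 genes of opposite sign at day 14, 185 had the same sign at day 7. The share of all genes with the same sign at both days is not given here. In the same direction as at day 14, 76 of the 216 were called at day 7. Among the 132 genes higher with gain 63 were called so at day 7 (47.7%, against 2.72% of all genes), and among the 84 lower with gain 13 were (15.5%, against 3.45%). With the 2 days fitted separately, an alternative chosen after seeing the data, 196 genes were of opposite sign at day 14, and 53 of these were called in the same direction at day 7. Among the 122 higher with gain these were 50 (41.0%, against 1.76% of all genes), and among the 74 lower with gain 3 (4.05%, against 2.13%).

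H2-D1 had 3.54 at day 7 (adjusted p = 1.26e-04) and B2m 4.47 (4.45e-06). Igtp and Irgm2 were further apart there, at 7.69 and 8.09 (adjusted p = 2.42e-07 and 2e-07), and the change between days passed for Irgm2 and not for Igtp (adjusted p = 0.049 and 0.0598). Stat3 had 3.16 (2e-07), Igfbp5 1.67 (0.00684) and Srl 0.73 (0.0237). Ppp1r3c, Cited4, Xirp2, Cth and Cebpd did not pass at day 7, with 0.39, 0.83, 0.16, 0.20 and -0.14.

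**Figure D5:**
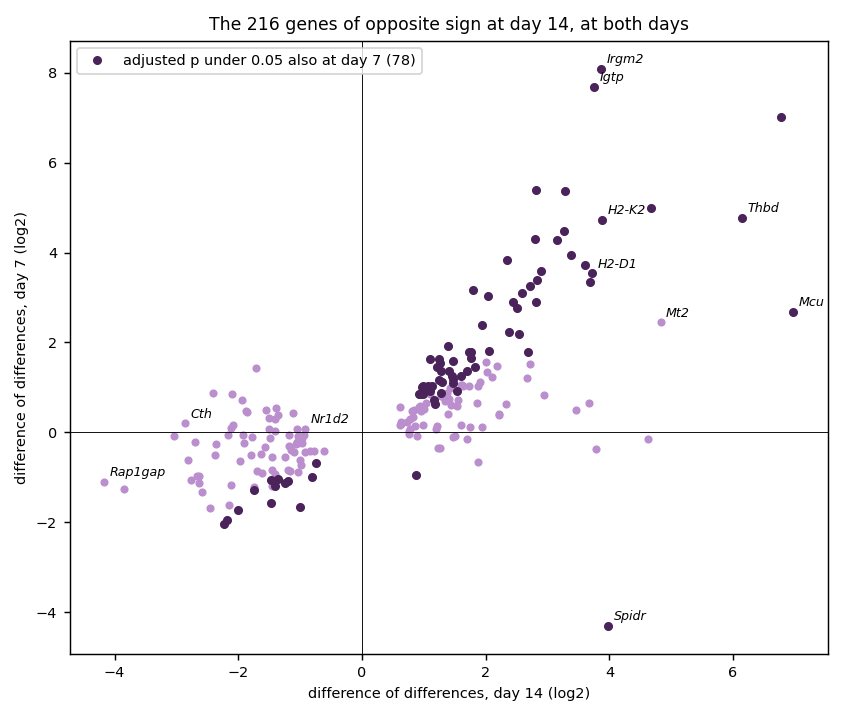
Difference of differences at day 7 (log2, vertical axis) against day 14 (log2, horizontal axis) for the 216 genes of opposite sign at day 14, 1 point a gene, with dark points for adjusted p below 0.05 also at day 7. Of these genes, 185 have the same sign at both days, and Spidr and Cebpg were called at day 7 with the other sign.

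The change between days was tested as day 14 minus day 7, and was called for 145 genes (0.639%), with 94 up (0.415%) and 51 down (0.225%), 9 of them among the 216. Mcu was further apart at day 14, with 6.98 against 2.69 at day 7 (adjusted p of the change 0.0079). Dbp, Per3 and Arntl had 0.21, -0.03 and -0.66 at day 7, and the change between days was called for all 3 (adjusted p = 4.59e-04, 0.0479 and 0.00779). Abcc9 had the other sign at day 7, at 2.65 (adjusted p of the change 3.19e-09). Spidr and Cebpg, a C/EBP factor that can pair with ATF4, changed upward by 8.28 and 1.82, and Gdpd3, which was not well above background in a group of each day, by at least 6.27.

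The strongest upward changes also held Glud-ps, a pseudogene of glutamate dehydrogenase (2.76, adjusted p = 2.71e-05), the mitochondrial membrane protein gene Tmem14c (3.06, 2.85e-04) and Rnase10 (1.36, 0.00693), which were not called at day 14. Downward changes held Iigp1, an interferon-inducible GTPase (-3.21, 1.35e-05), Psmb9, a subunit of the immunoproteasome (-2.77, 2.85e-04), and Abhd16b (-2.38, 0.00128). Iigp1 and Psmb9 were apart at day 7, at 2.99 and 2.71, and near 0 at day 14, at -0.22 and -0.06. Counts of this change moved with single arrays: 84 genes were called without the fourth and 91 without the third AAVMCU fibre of day 14, 91 without the fourth Wild type fibre and 96 without the second AAVshLuc fibre.

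Settings other than a left-out array, and apart from the direct difference of the MCU vectors, ended the following calls among the described genes. Myh4 and Myh1 as covariates ended 25 calls (adjusted p = 0.0514 to 0.183), those of Sgms2, Ankrd1, Cebpd, Spidr, Fam25c, Eif4ebp1, Acvr2b, Cited4, Asph, Mylpf, Cth, Batf2, Pttg1, Lurap1l, Mlycd, Ucp3, Hspa1a, Mgst1, Gstm1, Pvr, Sh3bp2, Apol6, Sowaha, Trim63 and Slc2a1. The share of probes above background as a covariate ended 30 (adjusted p = 0.0551 to 0.226), those of Sgms2, Mt1, Ankrd1, Cebpd, Spidr, Acvr2b, Cited4, Asph, Mylpf, Sult5a1, Cth, Arsa, Ccdc27, Pttg1, Lurap1l, Mlycd, Ucp3, Socs3, Hspa1a, Fras1, Mgst1, Gstm1, Sh3bp2, Apol6, Sowaha, Ighv14-2, Fbxo30, Trim63, Slc2a1 and Cebpg. Fitting the 16 arrays of day 14 alone ended 16 (adjusted p = 0.0507 to 0.0984), those of Spidr, Fam25c, Xirp2, Acvr2b, Cited4, Asph, Mlycd, Ucp3, Fras1, Gstm1, Pvr, Sh3bp2, Cxcr6, Sowaha, Trim63 and Cebpg. Without a filter on dim probes 13 were lost (adjusted p = 0.0501 to 0.0816), those of Spidr, Fam25c, Asph, Arsa, Lurap1l, Mlycd, Gstm1, Pvr, Sh3bp2, Sowaha, Trim63, Slc2a1 and Cebpg, and with normexp background correction 10 (adjusted p = 0.0526 to 0.183), those of Sgms2, Sult5a1, Cth, Arsa, Ccdc27, Lurap1l, Pvr, Sh3bp2, Apol6 and Slc2a1. Raising dim spots to the floor ended the calls of Arsa, Pvr and Apol6 (adjusted p = 0.051 to 0.0732), quantile normalization those of Arsa, Lurap1l and Gstm1 (adjusted p = 0.0537 to 0.0748) and the series matrix values those of the same 3 (adjusted p = 0.0535 to 0.0776). The mean of all kept probes ended those of Acvr2b, Ucp3, Sphk1, Ighv14-2, Fbxo30 and Trim63 (adjusted p = 0.0568 to 0.163), the median scaling those of Acvr2b, Lurap1l, Mlycd, Ucp3 and Nr1d2 (adjusted p = 0.0505 to 0.098), and the percentile over probes well above background on all arrays those of Gstm1 and Cebpg (0.0556 and 0.083). The filter over all 8 groups ended that of Gstm1 (0.0507), the slide row as a covariate that of Sh3bp2 (0.0532), and the replicate block those of Mlycd, Sowaha and Slc2a1 (adjusted p = 0.0512 to 0.0548).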

How the data were processed

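Single mouse muscle fibres were profiled on 1-colour Agilent arrays, 30 in all, after whole-transcriptome amplification and random-primed Cy3 labelling, per the labels' protocols, so that strand was not kept. The deposited scanner files hold spot intensities that Agilent Feature Extraction 10.7.3.1 had background-subtracted and flagged, per the file headers, with probe positions in mm9. Control spots were left out, spots of a probe averaged, each array divided by its 75th percentile and log2 taken. A probe was kept when 3 or more fibres of any day-14 group gave it a signal well above background (32007 of 55681), with the brightest kept probe for a gene, which left 22677 genes, 13123 of them with a symbol. Names came from accessions in RefSeq for 26425 probes, symbols for 3988, synonyms for 826, and the file's own name for 24442. No spot was saturated. The number of arrays limits the precision.

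One limma 3.58.1 model in R 4.3.3 gave the 8 group means over 30 arrays with 22 residual degrees of freedom. Contrasts were called at a Benjamini-Hochberg adjusted p below 0.05 over all genes, and all gene p-values in the text come from limma. The script was tested on simulated data. A group with no array well above background has only a bound: its level was raised to each array's lowest signal among probes well above background, and the fold is written as "at least". Named genes were Mcu, the 12 largest differences in each direction among opposite genes with a symbol, all genes past the adjusted threshold in both arms, the 8 largest in each direction among other called genes, the 5 most significant day changes in each direction, and the 4 members of each gene list with the largest statistic. A few named genes are not reported here. Exceptions are said to be chosen after their values were seen. The groups, lists, members and tests were chosen with earlier results of these data known. Replicate numbers did not pair the fibres: of 14 pairs, 4 had correlated deviations above 0.1. Alternatives covered scaling, normalization, background correction, the submitters' series matrix values (log2 of deposited signal, medians 20.9 to 21.0, with own-array correlations of at least 0.998), filters, the choice of probe, the arrays fitted, array weights, covariates and each array left out. Fitting the days separately was added after seeing the data.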

Additional observations from a re-analysis of the deposited data

Results flagged for a closer look

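One array of 4 stood far from the other 3 in 19 of the 308 groups of the described genes (6.17%), and chance gives about 1 in 20. The log2 level of the highest array stood apart for Ankrd1 in AAVshLuc (6.10, next 4.51), Fam25c in AAVshMCU (-1.73, next -4.94), Igtp in Wild type (-2.41, next -2.66) and Ppp1r3c in Wild type (4.13, next 3.40). The same held for Asph in AAVshMCU (6.12, next 5.61), Asph in AAVshLuc (6.04, next 5.94), Rap1gap in AAVMCU (-3.82, next -4.97) and Dnajb1 in Wild type (6.87, next 4.63). Further high arrays were Rrad in AAVshLuc (6.53, next 4.37) and Apol6 in AAVshLuc (-3.31, next -4.91). The lowest array stood apart for Spidr in AAVMCU (-1.42, next 0.01), Fam25c in Wild type (-4.87, next -4.37), Trim35 in AAVshMCU (1.74, next 2.14) and Smad1 in AAVshMCU (1.65, next 2.10). It also did for Jak1 in AAVMCU (3.03, next 3.33), Socs3 in AAVMCU (2.38, next 3.95), Gdpd3 in Wild type (-4.80, next -3.32) and Ighv14-2 in AAVshMCU (-0.36, next 0.85), besides Dbp in AAVshMCU (4.39, next 4.70). Fam25c in Wild type, Rap1gap in AAVMCU, Gdpd3 in Wild type and Apol6 in AAVshLuc had 0 arrays well above background in that group.

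Between days the difference of differences changed, as tested by the limma contrast of day 14 minus day 7 at an adjusted p below 0.05, for 17 of the described genes. It was higher at day 14 for Mcu (4.29, with 6.98 at day 14 and 2.69 at day 7), Spidr (8.28, with 3.98 at day 14 and -4.30 at day 7) and Cebpg (1.82, with 0.87 at day 14 and -0.95 at day 7). It was also higher for Glud-ps (2.76, with 0.50 at day 14 and -2.26 at day 7), Tmem14c (3.06, with -0.15 at day 14 and -3.21 at day 7) and Rnase10 (1.36, with 0.18 at day 14 and -1.18 at day 7). It was lower at day 14 for Irgm2 (-4.22, with 3.87 at day 14 and 8.09 at day 7), Per3 (-2.81, with -2.84 at day 14 and -0.03 at day 7) and Dbp (-2.91, with -2.71 at day 14 and 0.21 at day 7). The same held for Abcc9 (-4.97, with -2.32 at day 14 and 2.65 at day 7) and Abhd16b (-2.38, with -1.35 at day 14 and 1.04 at day 7), and for Iigp1 (-3.21, with -0.22 at day 14 and 2.99 at day 7) and Psmb9 (-2.77, with -0.06 at day 14 and 2.71 at day 7). For Gdpd3, Arntl, Apol6 and Ppp2r2c a group was not well above background, so the change has only a bound, at least 6.27 and 3.59 higher for Gdpd3 and Arntl, and -7.45 and -4.55 or lower for Apol6 and Ppp2r2c (adjusted p = 3.4e-04, 0.00779, 0.0253 and 0.00277). The sign was the same at both days for Mcu, Irgm2, Per3 and Tmem14c, and opposite for the other genes listed with a value at each day.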

How the results depend on the processing

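Over 16 alternatives of scaling, normalization, filter, probe, fit and covariate, the count of called genes stayed within 1.5 times 535 except at 288 with Myh4 and Myh1 as covariates and 250 with the share of probes above background. The direct difference of AAVMCU and AAVshMCU, which lie on different slides, called 3410. The 216 genes of opposite sign became 351 with array weights, 101 with Myh4 and Myh1 and 121 with the share, of which 205, 80 and 96 were the same genes. The 145 day changes became 61 with the share. Leaving out 1 array gave 321 to 983 called genes, 131 to 420 of opposite sign, 84 to 150 day changes and 6.59 to 7.40 for Mcu. Called genes moved by over 1.5 times without AAVMCU fibre 3 (349), AAVshMCU fibre 3 (355) or 4 (983) or Wild type fibre 3 (321). Genes of opposite sign did so without AAVMCU fibre 3 (141) or 4 (141), AAVshMCU fibre 4 (420) or Wild type fibre 3 (131), and day changes without AAVMCU fibre 3 (91) or 4 (84), AAVshLuc fibre 2 (96) or Wild type fibre 4 (91). Of 76 described differences of differences, 52 kept their call without any 1 array, 51 with Myh4 and Myh1, 46 with the share and 48 under all of the other alternatives. The direct difference is not counted among those alternatives. In it 37 of the 76 kept their call, 30 kept their sign but lost the call, and 9 turned negative without passing. These 9 were Mt2 (-1.40), Mt1 (-0.85), Stat3 (-0.18), Sbno2 (-0.21), Socs3 (-1.25), Rrad (-0.040), Sphk1 (-0.91), Fbxo30 (-0.63) and Slc2a1 (-0.22). The cause of these changes was not tested. Scaling to the median made 82.7% of called genes higher, against 59.4%. With the 75th percentile over probes well above background on all arrays, the median of the potassium channel list turned to -0.07 and that of the slow sarcomere list to -0.13. With the replicate block, 546 genes were called, 243 were of opposite sign and 132 changed between days, and Mlycd, Slc2a1 and Sowaha lost their calls. The fibres share only a number: over 14 pairs the correlation was -0.181 to 0.197, and 7 treated fibres were closest to the control fibre of their own number. Genes not well above background in a group have only a bound there.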
